A study of Mus musculus with 9 samples.

Results

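The Toll-like receptor (TLR) genes were followed through bulk RNA-seq libraries of mouse pre-cDCs, precursors of conventional dendritic cells (cDCs), sorted from bone marrow (BM) and spleen. The members were 10 genes taken by symbol from a count table of 51912 genes: Tlr1, Tlr2, Tlr3, Tlr4, Tlr6, Tlr7, Tlr9, Tlr11, Tlr12 and Tlr13. All 10 were found and all passed the filter on low counts in every comparison tested. Tlr5 and Tlr8, the other TLR genes of the mouse considered here, are described at the end of the family.

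The study compared pre-cDCs with and without DNGR-1, the C-type lectin receptor encoded by Clec9a, in mixed BM chimeras. Lethally irradiated BL/6 hosts carrying both CD45 alleles received equal parts of WT BL/6 CD45.1 BM and of CD45.2 BM from Clec9aCre/Cre mice, in which a Cre insertion in both copies of Clec9a removes DNGR-1 (DNGR-1 KO), so cells of both genotypes developed in hosts of 1 kind. For WT cells, one label gives the allele as CD45.1 and a different one as CD45.2. No mouse was treated after reconstitution, the ages were not given in the labels, and each library pooled cells of 2 mice. Pre-cDCs were sorted as CD135+ CD43+ cells after exclusion of T cells (CD3), B cells, NK cells (NK1.1), neutrophils (Ly6G), Ly6D+ cells, eosinophils (Siglec-F) and erythroid cells (Ter119). There were 3 WT and 3 DNGR-1 KO libraries from BM, 1 WT and 2 DNGR-1 KO libraries from spleen, and p-values measure the spread between these pools. As 6 mice were used in all, libraries of different groups share mice, and no source used here says whether equal replicate numbers mark the same mice.

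TLRs are membrane receptors of innate immunity whose leucine-rich ectodomain binds microbial products and whose intracellular TIR domain recruits adaptors. TLR2 acts with TLR1 or TLR6 at the cell surface on bacterial lipopeptides, and TLR4 acts with MD-2 and CD14 on lipopolysaccharide. The others listed here work in endosomes, where the chaperone UNC93B1 delivers them: TLR3 binds double-stranded RNA, TLR7 single-stranded RNA, TLR9 CpG DNA, TLR13 bacterial ribosomal RNA, and TLR11 with TLR12 the profilin of apicomplexan parasites. In mice, TLR3, TLR11 and TLR12 are known for their place in cDC1s, the cross-presenting cDC subset, while TLR7 and TLR9 are best known from plasmacytoid DCs and B cells.

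Sequence bears on 1 pair of members. Tlr1 (chr5:64924679-64933563) and Tlr6 (chr5:64952031-64960097) lie next to each other on the minus strand of GRCm38, and their coding sequences are identical over stretches of up to 229 bases. The longest such run is printed because reads inside it cannot be assigned to either gene. It spans chr5:64925537-64925765 in Tlr1 and chr5:64953828-64954056 in Tlr6, and is read from the GENCODE M21 transcripts.
Tlr1 and Tlr6 shared run: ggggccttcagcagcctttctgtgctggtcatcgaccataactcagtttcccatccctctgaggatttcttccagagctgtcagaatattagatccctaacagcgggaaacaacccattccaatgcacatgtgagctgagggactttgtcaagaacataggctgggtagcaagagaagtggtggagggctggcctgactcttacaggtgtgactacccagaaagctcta
Of all stretches of 50 bases in the longest Tlr1 transcript, 15.3% occur in that of Tlr6, and 12.5% the other way round. In 8 of 9 libraries the deposited values of the pair were not whole numbers, and in those 8 their sum was whole within 0.02. Of the 72 values of the other 8 members, 1 was not whole. The split between Tlr1 and Tlr6 is therefore an estimate, whereas their sum is a count.

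Upstream windows from RefSeq (GRCm38.p6) were matched to 8 of the 10 members. The upstream windows of Tlr1, Tlr2, Tlr11 and Tlr12 are printed because Tlr1, Tlr2 and Tlr11 were the members higher in every spleen library than in any BM library, and Tlr12, the partner of Tlr11, was not. Each covers the 250 bases before a start site, on the strand of the gene: chr5:64933559-64933808 for Tlr1 (minus), chr3:83841609-83841858 for Tlr2 (minus), chr14:50357664-50357913 for Tlr11 (plus) and chr4:128618620-128618869 for Tlr12 (minus). Capitals mark letters of 5 motifs searched on both strands: PU.1 (GAGGAAGT), ISRE (GAAA and GAAA with any 2 bases between), kappa B (GGGA and TTCC with any 2 bases between), AP-1 (TGANTCA) and E-box (CACGTG).
Tlr1 upstream: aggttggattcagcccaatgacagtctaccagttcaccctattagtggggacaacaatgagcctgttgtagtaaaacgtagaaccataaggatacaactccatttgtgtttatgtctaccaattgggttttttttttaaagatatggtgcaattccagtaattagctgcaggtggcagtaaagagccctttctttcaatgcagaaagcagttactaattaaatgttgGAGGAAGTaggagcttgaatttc
Tlr2 upstream: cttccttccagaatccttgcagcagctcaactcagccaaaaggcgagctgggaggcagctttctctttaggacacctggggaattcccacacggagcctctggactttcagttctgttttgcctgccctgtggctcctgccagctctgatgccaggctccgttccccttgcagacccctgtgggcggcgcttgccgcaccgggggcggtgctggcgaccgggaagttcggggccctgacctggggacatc
Tlr11 upstream: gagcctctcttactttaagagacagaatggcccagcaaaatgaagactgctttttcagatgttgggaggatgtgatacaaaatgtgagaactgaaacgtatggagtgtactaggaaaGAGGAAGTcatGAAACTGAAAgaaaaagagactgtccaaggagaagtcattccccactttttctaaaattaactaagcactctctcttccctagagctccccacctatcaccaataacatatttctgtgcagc
Tlr12 upstream: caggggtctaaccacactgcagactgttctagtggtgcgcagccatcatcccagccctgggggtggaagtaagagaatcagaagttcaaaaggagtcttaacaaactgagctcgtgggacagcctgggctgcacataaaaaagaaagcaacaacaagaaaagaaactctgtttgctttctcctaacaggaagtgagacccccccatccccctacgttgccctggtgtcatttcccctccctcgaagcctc
The PU.1 letters occurred in 2 of 8 members, Tlr1 and Tlr11, against 2.44% of 32851 windows of this length. The ISRE letters occurred in Tlr6 and Tlr11, against 2.98% of windows, and no motif overlapped another in the Tlr11 window. Tlr3 held the kappa B letters (1.21% of windows), Tlr9 the AP-1 letters (6.75%) and a second start of Tlr1 the E-box (6.02%). None of the 5 was found in the windows of Tlr2, Tlr12 and Tlr13, which says only that these letters are absent there.

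The libraries held 17103806 to 23722298 counts each, so that 3 counts stood for 0.127 to 0.180 CPM (counts scaled to the normalized library size). Clec9a was at 905 to 1766 counts in WT BM and 2459 in WT spleen, against 0 or 1 count in every DNGR-1 KO library. Flt3, which encodes CD135, was at 284 to 597 CPM in all 9 libraries. Spleen libraries stood apart: they had counts for 11698 to 13169 genes, against 14862 to 18122 in BM. Mitochondrial transcripts took 1.66 to 1.90% of counts in spleen and 0.747 to 1.64% in BM, where WT replicate 1 was highest. T cell markers summed to 1267 to 4765 CPM in spleen and 4.01 to 11.7 CPM in BM, with all 10 markers above 3 counts in each spleen library. Erythroid genes summed to 8743 to 50976 CPM in spleen and 120 to 642 CPM in BM, while neutrophil granule genes summed to 0.337 to 4.95 CPM and 995 to 2959 CPM. Monocyte and macrophage markers summed to 3361 to 5874 CPM in spleen and 2799 to 5274 CPM in BM, with Vcan at 0. Among them Adgre1 (67.3 to 124 against 1.76 to 10.1 CPM) and C1qb (18.4 to 130 against 0.488 to 2.95 CPM) were higher in every spleen library than in any BM library, whereas F13a1 was lower in every one (51.3 to 89.6 against 112 to 584 CPM). Markers of mature cDC2s, the other main cDC subset, summed to 1585 CPM in WT spleen, 788 and 915 CPM in DNGR-1 KO spleen and 389 to 757 CPM in BM. NK cell markers summed to 784 to 2020 CPM in spleen and 46.7 to 108 CPM in BM. B cell markers summed to 117 to 165 CPM in spleen and 62.3 to 116 CPM in BM. Among them Pax5 and Ebf1 had 3 counts or fewer in every library, while Cd79b was at 25.4 to 58.4 CPM and Cd22 at 19.4 to 128 CPM. Ms4a1 had 0 counts in WT spleen, 213 and 222 in DNGR-1 KO spleen and 0 or 1 in BM. In DNGR-1 KO spleen replicate 1, Cd79a had 49 counts and Fcrla 301, against 1 and 0 in WT spleen and 0 each in DNGR-1 KO spleen replicate 2. Fcrla had 34 to 87 counts in BM. In bulk RNA, fewer cells of a type and less RNA per cell cannot be told apart, and the part of these other cells in the results below was not tested.

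Per length of transcript, the family was lower in BM pre-cDCs than in spleen pre-cDCs. The 10 genes together reached 14.2 to 62.1 CPM per kilobase of exon (RPKM) in the 6 BM libraries and 79.4 to 174 RPKM in the 3 spleen libraries, and the ranges did not overlap. Tlr2 was the highest member per length in each of the 9 libraries. In BM, Tlr2 was at 14.8 ± 5.20 RPKM (SD, n = 6) and Tlr12 followed at 12.8 ± 5.02, above 73.7% and 71.2% of the genes tested. Tlr1 (3.73 ± 1.67 RPKM), Tlr6 (3.10 ± 1.48) and Tlr3 (2.98 ± 2.06) formed a middle group. Tlr13 (0.897 ± 0.728), Tlr11 (0.777 ± 0.714), Tlr4 (0.527 ± 0.395), Tlr9 (0.322 ± 0.213) and Tlr7 (0.195 ± 0.215) were all below 1 RPKM, where the median gene tested was at 4.45. Every neighbouring pair in this order overlapped in range.

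The order in spleen was different. Tlr2 led at 48.4 ± 23.6 RPKM (SD, n = 3), and its lowest library was above the highest of Tlr1, at 19.0 ± 10.6. Tlr11 (16.1 ± 17.0 RPKM), Tlr12 (14.7 ± 12.9), Tlr13 (13.9 ± 15.5), Tlr3 (10.5 ± 10.1), Tlr6 (7.78 ± 6.03) and Tlr7 (5.77 ± 5.71) followed with overlapping ranges. Tlr4 (1.04 ± 1.76) and Tlr9 (0.117 ± 0.152) were lowest. The endosomal receptors made up 40.7 to 48.5% of the family's RPKM in BM, 48.4 and 54.5% in DNGR-1 KO spleen and 33.7% in the WT spleen library. The last share rests on 1 library, in which Tlr12 was at 0.0563 RPKM (3 counts), against 19.9 and 24.2 RPKM in DNGR-1 KO spleen.

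**Figure D1:**
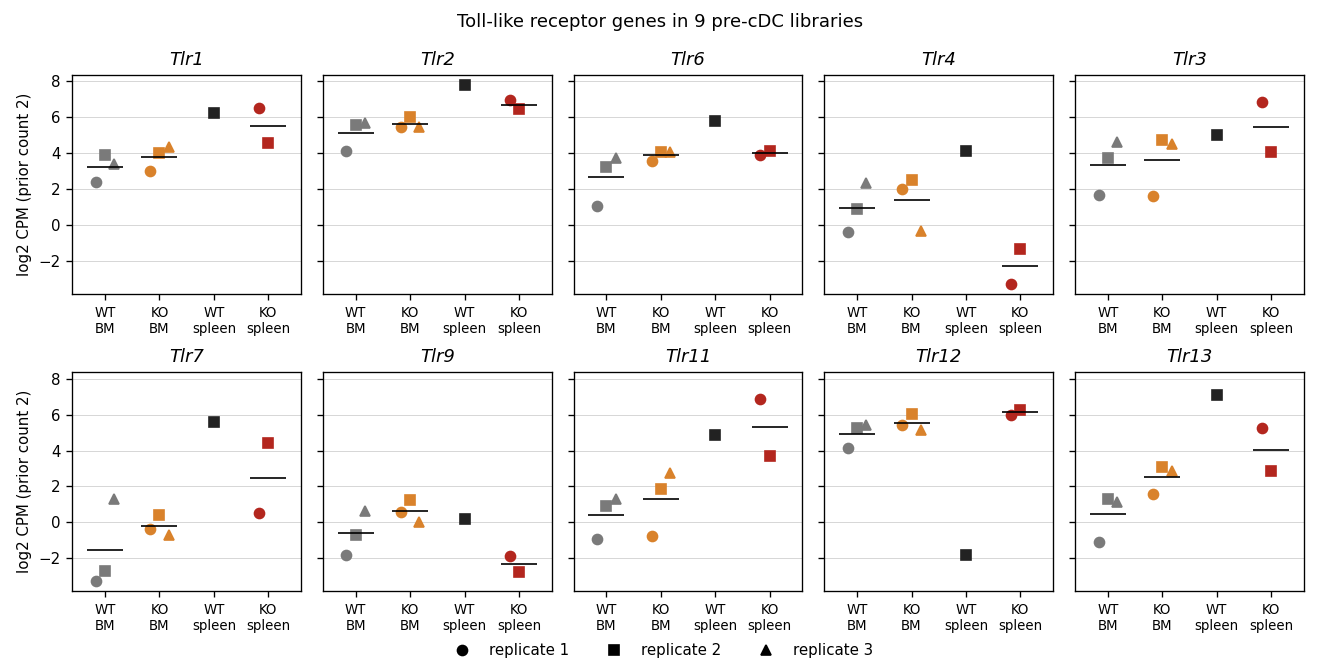
Level of each TLR gene in every library, as log2 CPM with a prior count of 2, by genotype and tissue. Points are libraries, shaped by replicate number, and lines are group means where a group has more than 1 library. The reader should see Tlr1, Tlr2 and Tlr11 above BM in all spleen libraries, Tlr12 near its floor in the WT spleen library alone, and Tlr4 and Tlr9 lowest in DNGR-1 KO spleen.

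Spleen and BM were compared over all 9 libraries with genotype as a covariate, to ask how the receptors differ between precursors in the marrow and those that have reached a tissue. Tlr1, Tlr2, Tlr7, Tlr11 and Tlr13 were higher in spleen (5 of 10 members), against 7.28% of the 13468 genes tested called higher, and no member was called lower (0 of 10 also in DESeq2 and both limma fits). The median log2 fold change was 1.69 over the members and -0.18 over all genes tested. Of the 5 calls, 1 remained without the WT spleen library, that of Tlr11, where 799 of 14215 genes were called higher. When only DNGR-1 KO libraries were compared, 0 remained, where 499 of 13433 genes were called higher. In that comparison 5 members had an unadjusted p under 0.05, against 27.2% of all genes tested there. Of these, Tlr1, Tlr2, Tlr7 and Tlr11 were higher in spleen and Tlr9 lower, and Tlr13 was not among them. A fit blocked on replicate number kept 1 call, that of Tlr11 (adjusted p = 0.0376), while Tlr1 (0.0515), Tlr2 (0.0590), Tlr13 (0.0627) and Tlr7 (0.196) did not pass (edgeR adjusted p). That fit called 429 of the 13468 genes higher and 817 lower. Only Tlr1, Tlr2 and Tlr11 had every spleen library above every BM library, against 9.15% of all genes tested.

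Among the surface receptors, Tlr2, the shared partner of the lipopeptide receptors, was at 17.0, 46.9 and 50.6 CPM in WT BM replicates 1 to 3 and 43.9, 65.2 and 44.5 CPM in DNGR-1 KO BM. It was at 225 CPM in WT spleen and at 124 and 88.0 CPM in DNGR-1 KO spleen. All spleen libraries were above all BM libraries, with a log2 fold change of 1.70 ± 0.40 (SE; edgeR, adjusted p = 0.0166). Without the WT spleen library the log2 fold change was 1.04 with an adjusted p of 0.151.

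Tlr1, which pairs with Tlr2 on triacylated lipopeptides, was at 5.09, 15.0 and 10.6 CPM in WT BM, 7.92, 16.3 and 20.0 CPM in DNGR-1 KO BM, 76.0 CPM in WT spleen, and 91.1 and 23.5 CPM in DNGR-1 KO spleen. The lowest spleen library was close to the highest BM library but did not overlap it. The log2 fold change was 2.35 ± 0.51 (edgeR, adjusted p = 0.0118), and without the WT spleen library 1.96 with an adjusted p of 0.0824.

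Tlr6, the partner for diacylated lipopeptides, was at 1.98, 9.15 and 12.98 CPM in WT BM, 11.7, 16.5 and 16.9 CPM in DNGR-1 KO BM, 54.9 CPM in WT spleen, and 14.6 and 17.5 CPM in DNGR-1 KO spleen. Spleen and BM overlapped, and the WT spleen library alone stood above the rest. Its tissue log2 fold change of 1.33 ± 0.69 did not pass the test (edgeR, adjusted p = 0.215). Per length, Tlr1 was 0.752 to 2.87 times Tlr6 in BM, 1.54 times in WT spleen, and in DNGR-1 KO spleen 6.97 times in replicate 1 and 1.49 times in replicate 2. This ratio rests on the estimated split of shared reads, and Tlr2 exceeded both partners in all 9 libraries.

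Tlr4, the lipopolysaccharide receptor, was at 0.659, 1.72 and 5.04 CPM in WT BM and 3.85, 5.61 and 0.702 CPM in DNGR-1 KO BM. The spleen libraries lay on both sides of BM, with 17.1 CPM for the WT library and 0 and 0.297 CPM for the others. The log2 fold change between tissues was -0.06 ± 2.06 (edgeR, adjusted p = 0.990), so the spread within spleen was far larger than the difference between tissues. Its direction turned to positive with RLE scaling (0.0013) and in 6 other settings. The genes of its coreceptor complex did not pass the tissue test: Ly96, which encodes MD-2, was at 4.06 to 9.04 CPM in BM and 8.87 to 19.4 CPM in spleen, and Cd14 at 8.91 to 18.6 and 14.6 to 22.8 CPM.

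Among the endosomal receptors, Tlr11 was at 0.419, 1.77 and 2.39 CPM in WT BM and 0.492, 3.51 and 6.67 CPM in DNGR-1 KO BM. Spleen was at 29.0 CPM in the WT library and at 116 and 13.03 CPM in the DNGR-1 KO libraries, so every spleen library was above every BM library. This gave a log2 fold change of 4.20 ± 0.87 (edgeR, adjusted p = 0.00951). Tlr11 was called in every setting tried except the comparison of DNGR-1 KO libraries alone (adjusted p = 0.0885) and the filter asking for at least 10 counts in every library, which it did not pass.

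Tlr12, the partner of Tlr11 on profilin, had another pattern. It was at 17.7, 37.8 and 43.3 CPM in WT BM, 43.6, 66.9 and 35.0 CPM in DNGR-1 KO BM, 63.4 and 77.0 CPM in DNGR-1 KO spleen, and 0.179 CPM (3 counts) in WT spleen. The DNGR-1 KO spleen libraries were within or just above the BM range and the WT spleen library lay far under it, so the tissue log2 fold change of -0.61 ± 1.19 did not pass the test (edgeR, adjusted p = 0.786). It turned to 0.53 without the WT spleen library. Per length, Tlr11 was 0.0110 to 0.185 times Tlr12 in BM and 1.78 and 0.164 times in DNGR-1 KO spleen, and in WT spleen Tlr11 had 486 counts beside the 3 of Tlr12.

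Tlr3, the receptor for double-stranded RNA, was at 3.05, 13.04 and 24.9 CPM in WT BM, 3.0, 26.5 and 22.6 CPM in DNGR-1 KO BM, 32.9 CPM in WT spleen, and 115 and 16.9 CPM in DNGR-1 KO spleen. The tissues overlapped through DNGR-1 KO spleen replicate 2. Its log2 fold change of 1.68 ± 0.83 did not pass the test (edgeR, adjusted p = 0.193). The lowest library in each BM genotype was replicate 1 and the highest of all was DNGR-1 KO spleen replicate 1. Xcr1 and Batf3, which mark the cDC1 lineage, were at 1.32 and 0.985 CPM and at 6.89 and 4.16 CPM in those BM replicates, their lowest values, and at 175 and 116 CPM in that spleen library, their highest. Cadm1 and Wdfy4 of the same 7-gene cDC1 list were likewise lowest in BM in replicate 1 of each genotype and highest in that spleen library (80.3 and 338 CPM), although Wdfy4 was lower still in WT spleen (20.2 CPM). Irf8 was lower in that spleen library (1680 CPM) than in any BM library, and Cd8a was highest in DNGR-1 KO spleen replicate 2 (512 CPM). Xcr1, Cadm1 and Cd8a were higher in every spleen library than in any BM library. Cd8a is also among the 10 T cell markers. Among the spleen libraries, Cd8a and the T cell sum were both lowest in WT (247 and 1267 CPM). Both were highest in DNGR-1 KO replicate 2 (512 and 4765 CPM). The part of these cDC1 and T cell genes in the Tlr3 and Tlr11 values was not tested. An exon of Gm45542 overlaps Tlr3 on the opposite strand, and reads of the overlap cannot be told apart unless the counting used strand.

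Tlr7, the single-stranded RNA receptor, was at 0, 0.0520 and 2.34 CPM in WT BM and 0.672, 1.22 and 0.502 CPM in DNGR-1 KO BM. WT spleen was at 47.8 CPM and DNGR-1 KO spleen at 1.35 and 21.5 CPM. The WT BM replicate 3 library was above the lower DNGR-1 KO spleen library, so the tissues overlapped. The log2 fold change of 4.75 ± 1.34 passed the test (edgeR, adjusted p = 0.0357), but the call was lost in 9 of 20 alternatives that gave it a value, with adjusted p from 0.0565 to 0.196. With each library left out, the log2 fold change ranged from 3.83 (without WT spleen) to 6.23 (without WT BM replicate 3). With the replicate block, where the call was lost, it was 4.65.

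Tlr13, the receptor for bacterial ribosomal RNA, was at 0.359, 2.39 and 2.09 CPM in WT BM, 2.91, 8.39 and 7.02 CPM in DNGR-1 KO BM, 135 CPM in WT spleen, and 37.6 and 7.05 CPM in DNGR-1 KO spleen. The lower DNGR-1 KO spleen library lay within the range of DNGR-1 KO BM. The log2 fold change was 4.16 ± 1.10 (edgeR, adjusted p = 0.0276), and without the WT spleen library 1.86 with an adjusted p of 0.205. The call was lost in 8 of 20 alternatives that gave it a value, among them limma-voom, with adjusted p from 0.0582 to 0.227. Tlr7, Tlr8 and Tlr13 lie on the X chromosome. Xist was at 101 to 263 CPM in all 9 libraries, and the Y-linked Ddx3y was at 19.2 and 45.6 CPM in DNGR-1 KO spleen, 4.79 CPM in DNGR-1 KO BM replicate 1 and 0.342 CPM or less in the other libraries. The part of this difference in the values of the X-linked members was not tested.

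Tlr9, the CpG DNA receptor, was low in every library. It had 3, 10 and 29 counts in WT BM, 31, 46 and 18 in DNGR-1 KO BM, 17 in WT spleen, and 3 and 1 in DNGR-1 KO spleen. The tissues overlapped, and the log2 fold change of -1.58 ± 1.25 did not pass the test (edgeR, adjusted p = 0.434). Markers of plasmacytoid DCs, cells in which TLR7 and TLR9 are abundant, summed to 994 to 1344 CPM in BM and 760 to 1187 CPM in spleen. Among them Ly6d (0 to 1.97 against 8.69 to 20.8 CPM), Cox6a2 (0 to 1.01 against 4.47 to 10.7 CPM) and Runx2 (55.4 to 111 against 173 to 294 CPM) were lower in every spleen library than in any BM library. Pacsin1 was higher in every one (2.53 to 6.24 against 0.853 to 2.39 CPM).

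**Figure D2:**
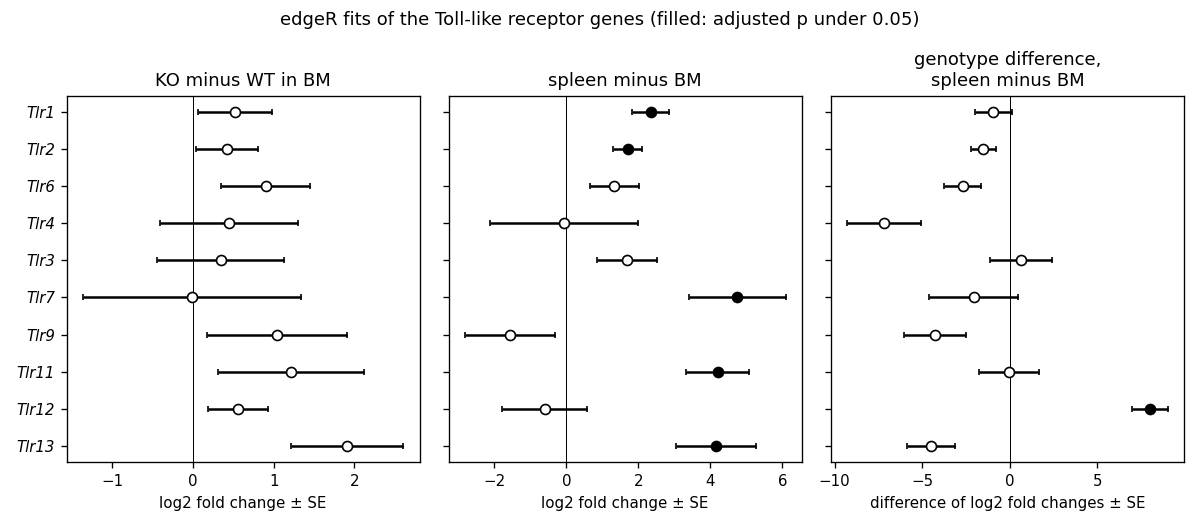
Fitted values of the 10 TLR genes from edgeR, with bars of 1 SE. The left and middle panels give log2 fold changes (DNGR-1 KO minus WT in BM, spleen minus BM) and the right panel the genotype difference in spleen minus that in BM. Filled points had an adjusted p under 0.05: none in BM, Tlr1, Tlr2, Tlr7, Tlr11 and Tlr13 between tissues, and Tlr12 in the right panel. The right panel rests on 1 WT spleen library, so its filled point and bars are not read as a test.

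WT and DNGR-1 KO pre-cDCs of BM were compared over 6 libraries, to ask whether loss of DNGR-1 goes with other receptor levels. No member passed the test (0 of 10, against 0.0307% of 13016 genes called), in edgeR, DESeq2 or either limma fit, and 1 of 10 had an unadjusted p under 0.05, against 3.83% of all genes tested. In counts simulated from these BM libraries, a log2 change of 2 was recovered for 88.2% of genes above 10 CPM. The share was 23.6% for the others, among which Tlr4, Tlr7, Tlr9, Tlr11 and Tlr13 lie. There 191 tested genes were changed together, which eases the adjusted threshold, whereas 4 genes were called in the data. The shares therefore do not say how often such a change in a single member would be called. The fitted log2 fold change was positive for 9 of 10 members, as it was for 49.6% of all genes tested, and the median was 0.54 over the members. These 9 are not separate observations, since WT BM replicate 1 was the lowest WT library for all 10 members, as it was for 40.6% of all genes tested. Without it, 8 of 10 were positive with a median of 0.24. Neutrophil granule genes were highest in replicate 1 of both genotypes, at 2670 and 2959 CPM, against 995 to 1600 CPM in the other 4 BM libraries. DNGR-1 KO BM replicate 1 was the lowest DNGR-1 KO library for 6 of 10 members (30.7% of all genes tested). Replicate 3, at 995 CPM of granule genes, was the lowest for 4 (36.8% of all genes tested). The part of granule genes in the low values was not tested.

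Tlr13 was the member with all DNGR-1 KO BM libraries above all WT BM libraries, a separation found for 4.79% of all genes tested. Its mean was 6.11 ± 2.85 CPM with the knockout and 1.61 ± 1.10 CPM without (SD, n = 3 each). This was a log2 fold change of 1.91 ± 0.70 (edgeR, adjusted p = 0.861), and Tlr13 was the member with an unadjusted p under 0.05. Tlr11 had a log2 fold change of 1.21 ± 0.90 and Tlr9 of 1.04 ± 0.87, with adjusted p of 0.861 each (edgeR). With each library left out, Tlr11 ranged from 0.385 to 1.73 and Tlr9 from 0.597 to 2.08. The values of Tlr6 (0.90 ± 0.55), Tlr12 (0.56 ± 0.37), Tlr1 (0.52 ± 0.46), Tlr4 (0.45 ± 0.86), Tlr2 (0.42 ± 0.39) and Tlr3 (0.34 ± 0.79) over all 6 libraries were smaller, and Tlr7 was at -0.01 ± 1.36. The direction of Tlr7 turned in 7 settings, that of Tlr3 without WT BM replicate 1 or DNGR-1 KO BM replicate 2, and that of Tlr4 without DNGR-1 KO BM replicate 2 or without replicate 1 of both genotypes.

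In spleen, the WT side was a single library, so genotypes there are given as values with no test. Both DNGR-1 KO libraries were at least 2-fold lower than WT for Tlr4, Tlr6, Tlr7, Tlr9 and Tlr13 (5 of 10), which held for 7.97% of 13468 genes. Both were at least 2-fold higher for Tlr12 (1 of 10, against 16.2% of genes). For Tlr1, Tlr3 and Tlr11, the DNGR-1 KO libraries fell on either side of WT, and Tlr2 was lower in both, at 0.551 and 0.391 of WT. Every one of these ratios depends on the same WT library.

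Tlr4 had 286 counts in WT spleen and 0 and 7 in DNGR-1 KO spleen, at least 101-fold lower in the first at a floor of 3 counts in that library, and 57.4-fold lower in the second. Tlr7 had 802 counts in WT and 24 and 506 in DNGR-1 KO, or 35.4-fold and 2.23-fold lower. Tlr13 had 2264 counts against 669 and 166, or 3.59-fold and 19.2-fold lower, and Tlr6 had 920 against 259 and 413, or 3.77-fold and 3.13-fold lower. The DNGR-1 KO spleen libraries were far from each other on Tlr7, at 1.35 against 21.5 CPM, and closer on Tlr6. Among monocyte and macrophage genes, Lyz2 was at 2632 CPM in WT spleen and 1106 and 864 CPM in DNGR-1 KO spleen, and Csf1r at 681, 237 and 319 CPM. C1qb was at 18.4, 64.0 and 130 CPM, and the part of such cells was not tested.

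Tlr12 had 3 counts in WT spleen and 1127 and 1814 in DNGR-1 KO spleen, a ratio of 354 (95% exact counting interval 121 to 1720) and of 431 (147 to 2090). Such intervals cover counting error only and not the spread between mice. Of the 8389 genes that reached 100 counts in each DNGR-1 KO spleen library, 509 (6.07%) had 3 counts or fewer in the WT spleen library, so Tlr12 was 1 of many. Among genes with at least 100 counts in each of the other 8 libraries, 272 had 3 or fewer in WT spleen. The same count was 63 and 65 for the DNGR-1 KO spleen libraries and 0 for each BM library, and the part of this loss in the Tlr12 value was not tested.

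**Figure D3:**
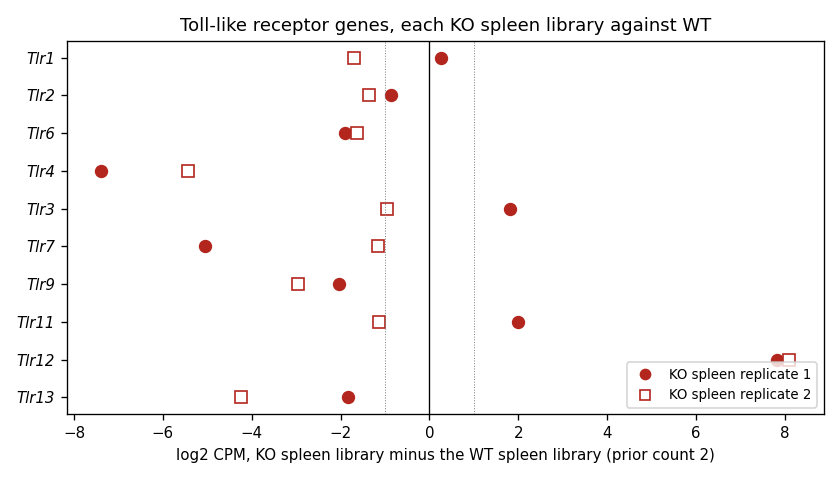
Difference in log2 CPM (prior count 2) of each DNGR-1 KO spleen library from the 1 WT spleen library, for the 10 TLR genes. Dotted lines mark 2-fold. Tlr12 lies near 8 in both libraries, Tlr4 lies under -5 in both, and the libraries fall on either side of 0 for Tlr1, Tlr3 and Tlr11.

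The difference between the genotype effects of the tissues was fitted over all 9 libraries, with the lone WT spleen library assumed to vary like the others. The spread of that library was not measured, so the fitted values are given with no p-value and no call. Tlr12 passed (1 of 10 members, against 8.85% of 13468 genes called and 7.05% called higher): the fitted genotype difference was higher in spleen than in BM by a log2 value of 8.01 ± 1.02 (edgeR, adjusted p = 0.00266), which rests on the 3 counts of WT spleen and on the assumed spread of that library. In limma-voom the Tlr12 value was 7.81. Tlr13 was at -4.51 and Tlr4 at -7.18 (edgeR). Tlr9 was at -4.27 and Tlr6 at -2.68 (edgeR). The median over the members was -1.78, against 0.29 over all genes tested.

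Tlr5, the flagellin receptor, had 2 to 45 counts in the BM libraries and 0 in all 3 spleen libraries. It was at least 14.6-fold lower in spleen, at a floor of 3 counts over the group, and was called lower (edgeR, adjusted p = 0.0295). The bound fell to 8.71-fold without DNGR-1 KO BM replicate 2, which held the 45 counts, and to 8.66-fold without DNGR-1 KO spleen replicate 2. Tlr8, a neighbour of Tlr7 on the X chromosome, was at 0 counts in WT BM and in spleen and at 14, 9 and 31 counts in DNGR-1 KO BM. This was at least 15.9-fold higher at a floor of 3 counts over the WT BM group, and at least 9.95-fold without DNGR-1 KO BM replicate 3, 10.4-fold without WT BM replicate 2 and 10.3-fold without WT BM replicate 3. The filter left it out of the main comparison, and without the filter its adjusted p was 0.589 (edgeR).

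Genes that serve the TLRs (5 lists) and innate sensors outside the family (1 list) came to 88 genes in the table, of which 81 were tested, 12 of them innate sensors. Between tissues 24 were higher in spleen and 3 lower, 33.3% of those tested, against 19.5% of all genes tested. A fit blocked on replicate number called 14 of the 81 higher and 1 lower, against 429 higher and 817 lower of all 13468 genes tested. The median log2 fold change was 0.41 over the lists and -0.18 over all genes. Between BM genotypes 0 of the 81 passed in edgeR, and also 0 in DESeq2 and limma-voom, while 3 had an unadjusted p under 0.05, against the 3.83% of all genes tested given above.

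Of 16 accessory and trafficking genes tested between tissues, 2 were higher and 1 lower, or 18.8%, close to the 19.5% of all genes tested. Unc93b1, the chaperone of the endosomal TLRs, was at 601 to 1147 CPM in BM and 419 to 788 CPM in spleen (log2 fold change -0.44 ± 0.26, edgeR, adjusted p = 0.273). Treml4, a surface protein that amplifies TLR7 signals, rose from 0.539 to 14.0 CPM in BM to 36.3 to 209 CPM in spleen (4.80 ± 0.90, adjusted p = 0.00630, edgeR). Ctss, a lysosomal protease that cleaves endosomal TLRs, rose by 1.36 ± 0.27 (edgeR, adjusted p = 0.00786). Ap4m1, an adaptor subunit, fell by 1.92 on the log2 scale (SE 0.40, edgeR, adjusted p = 0.00996).

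Of 6 coreceptor genes tested, 1 was higher and 1 lower (33.3%, against 19.5% of all genes tested). Cd36, a scavenger receptor that serves TLR2 with TLR6, was at 2.96 to 10.2 CPM in BM and 80.0 to 116 CPM in spleen (log2 fold change 3.58 ± 0.37, edgeR, adjusted p = 0.000378). Lbp, the lipopolysaccharide-binding protein, had 34 to 253 counts in BM and 0 in spleen, at least 124-fold lower at a floor of 3 counts over the group and at least 74.0-fold without DNGR-1 KO spleen replicate 2.

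Of 21 proximal adaptors and kinases, 3 were higher in spleen and 0 lower (14.3%, against 19.5% of all genes tested). Myd88, the adaptor of every TLR here but TLR3, was at 117 to 144 CPM in BM and 165 to 225 CPM in spleen, a small rise with no overlap (log2 fold change 0.57 ± 0.16, edgeR, adjusted p = 0.0328). Irak4, the kinase it recruits, rose by 0.90 ± 0.27 and Ikbke, an IKK-related kinase, by 2.04 ± 0.57 (edgeR, adjusted p = 0.0450 and 0.0353). Ticam1, the adaptor of TLR3, was at 9.34 to 13.4 CPM in BM, 35.4 CPM in WT spleen, and 1.80 and 43.3 CPM in DNGR-1 KO spleen, and did not pass (1.25 ± 0.71, edgeR, adjusted p = 0.267).

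Transcription factors (53.8%), other innate sensors (50%) and negative regulators (46.2%) had larger shares called than the lists above and than all genes tested (19.5%). Of 13 transcription factors, 6 were higher and 1 lower in spleen. Relb, a subunit of noncanonical NF-kB, rose by 2.44 ± 0.38, Irf1 by 1.48 ± 0.27 and Irf7 by 1.20 ± 0.23 (edgeR, adjusted p = 0.00259, 0.00517 and 0.00704). Irf8, which directs cDC1 development and also acts below TLR9, fell by 1.35 on the log2 scale (SE 0.33, edgeR, adjusted p = 0.0202). Of 13 negative regulators, 6 were higher and 0 lower. Nfkbia, the inhibitor of NF-kB that NF-kB itself induces, rose by 1.51 ± 0.19, Nfkbiz by 2.63 ± 0.40, and Socs1, an inhibitor of cytokine signalling, by 4.11 ± 0.75 (edgeR, adjusted p = 0.000942, 0.00245 and 0.00548).

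Innate sensors outside the family went the same way for 6 of 12, with 0 lower. Pglyrp1, which binds peptidoglycan, rose by 3.26 ± 0.31, Nod1, a cytosolic sensor of peptidoglycan fragments, by 2.90 ± 0.32, and Zbp1, a sensor of Z-form nucleic acid, by 2.98 ± 0.38 (edgeR, adjusted p = 0.000210, 0.000489 and 0.00104). T cell, NK cell and erythroid markers, given above, were high in the same spleen libraries, and their part in these rises was not tested. In the fit of the genotype effect by tissue, the log2 values of Traf6 (4.75) and Cnpy4 (1.85) were positive (edgeR). Those of Ticam2 (-2.36), Cd180 (-2.79), Btk (-2.13) and Tank (-1.66) were negative. These 6 genes were picked by their adjusted p in that fit. WT spleen had no replicate spread, so the values are given with no call. They rest on the WT spleen library, as that of Tlr12 does.

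**Figure D4:**
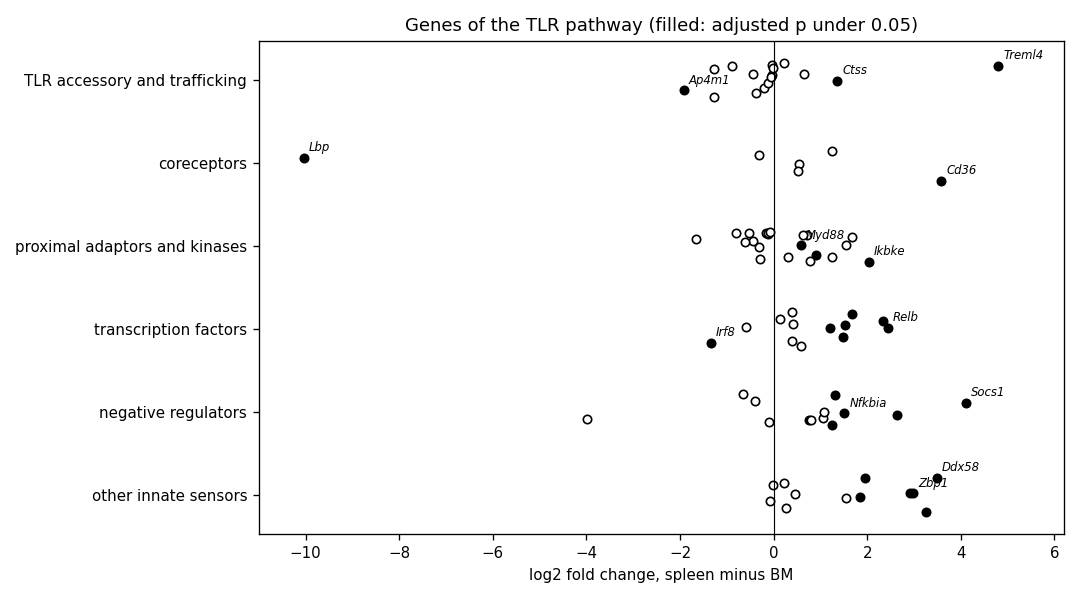
Log2 fold change between spleen and BM for each tested gene of the 6 gene lists, 1 point a gene, filled where the edgeR adjusted p was under 0.05. Points are spread vertically within a list for legibility. Filled points are mostly to the right of 0 among transcription factors, negative regulators and other innate sensors, and 2 to the left, Lbp and Ap4m1, belong to the coreceptors and the accessory genes, with Irf8 to the left among transcription factors.

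Each member was also matched to the 2 genes, among 13467, whose log2 CPM followed it most closely over the 9 libraries, as a description with no test, since all values share the same libraries and their depth. Tlr3 was closest to H2-Ab1 (Pearson r = 0.99), which encodes an MHC class II chain, and Gcsam (0.98). Tlr11 was closest to Hepacam2 (0.99) and H2-Eb1 (0.98), another MHC class II chain. Tlr1 was closest to Cd83 (0.98), a DC maturation marker, and Clec4a2 (0.98), and Tlr2 to Rnft1 and Gpcpd1 (0.99 each). Tlr6 was closest to Vwa5a and Sh3bgrl (0.98 each), Tlr13 to Riok3 and Dhx40 (0.99 each) and Tlr7 to Pi16 (0.98) and Zfp131 (0.97). Tlr12 was closest to Samd4b and Gm5141 (0.99 each). Tlr4 (Rfc1 and Helb, 0.97 each) and Tlr9 (Zdhhc13 and Hsd17b4, 0.95 each) had the weakest matches.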

How the data were processed

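RNA was total RNA with ribosomal RNA removed, from chimeric mice not treated after reconstitution. The submitters' processing notes name Trimmomatic 0.36, STAR 2.5.2, RSEM 1.3.0, DESeq2 1.18.1, R 3.4.3 and GRCm38. The authors deposited expected counts for 51912 genes, in which 25.6% of nonzero values are not whole, and log2 values of 20810 genes after a variance stabilizing transformation (VST) with a floor of 8.43. Expected counts were rounded here. Symbols came from GENCODE M21 for 51633 identifiers. The strand setting of the counting is not given in the sources used here.

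Tests used edgeR 4.0.16 in R 4.3.3 (TMM, filterByExpr, quasi-likelihood, Benjamini-Hochberg over all genes tested, threshold 0.05), on 6 BM libraries for genotype and on 9 for tissue and for genotype by tissue. Standard errors came from the F statistic. CPM used TMM over 9 libraries, RPKM the union exon length, and log2 CPM a prior count of 2. Depth was 17103806 to 23722298 counts per library. Alternatives were DESeq2 1.42.0, limma 3.58.1 on voom weights and on the VST values, other filters and scalings, the replicate number as a block, a score of the genes near Ptprc as a covariate, and each library left out. On simulated counts, a log2 change of 2 was recovered for 29.4% of genes between tissues and 0% in genotype by tissue, and one of 4 for 68.0% and 45.2%.

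The members and lists were chosen with earlier results of these data known. All 10 members are named, with Tlr5, Tlr8, Unc93b1, Myd88, Ticam1, Cd14 and Ly96, up to 3 genes per list and direction by tissue adjusted p, list genes past the threshold in BM or genotype by tissue, and the 2 closest genes by correlation. Marker genes and cDC1 genes named beside the members were chosen after their values were seen.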

Additional observations from a re-analysis of the deposited data

Results flagged for a closer look

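For Tlr12, the genotype difference in spleen against that in BM had a fitted log2 value of 8.01 (edgeR). Both DNGR-1 KO spleen libraries were above the WT spleen library, and the BM genotypes overlapped. No p-value is given, since the spread of the 1 WT spleen library was not measured. The value rests on 3 counts in the 1 WT spleen library, in which 272 genes with at least 100 counts in each of the other 8 libraries had 3 or fewer.

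For Tlr13, the genotype differences of BM and spleen lay in opposite directions. All 3 DNGR-1 KO BM libraries were above all WT BM libraries (edgeR, adjusted p = 0.861), and both DNGR-1 KO spleen libraries were below the 1 WT spleen library. The difference between these genotype effects had a fitted log2 value of -4.51 (edgeR). It is given without a p-value, since the spread of that library was not measured. No group held the 4 libraries that a test for single outlying samples needs.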

How the results depend on the processing

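The 0 calls among members in BM held in every setting run, in both directions, as did the 0 pathway calls. The 5 members called higher in spleen became 3 on VST values, 2 with at least 10 counts in every library (4 members tested), 1 with the replicate block, where the call of Tlr11 was kept, and 0 in DNGR-1 KO libraries alone. With each library left out they ranged from 1 to 5, 1 being without the WT spleen library and 3 without WT BM replicate 2 or DNGR-1 KO BM replicate 1. The cause was not tested. For genotype by tissue no calls are counted, since WT spleen held 1 library. The filter of at least 10 counts in every library left Tlr12 out of that fit. Whether the replicate numbers pair the libraries is not settled. Same-numbered BM libraries had correlations of deviations of 0.102, 0.0975 and -0.0782, and not every library correlated best with its own number, but the granule gene S100a8 followed the number (179 and 148, 11.8 and 14.3, 42.3 and 41.0 CPM in WT and DNGR-1 KO replicates 1, 2 and 3). Pairing between tissues was not tested. No BM call changed under the block.

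Of the pathway genes, the 24 called higher in spleen became 14 with the replicate block and ranged from 17 to 25 with each library left out. The 3 called lower became 6 in DESeq2, 5 in limma-voom, 1 with the block, and 3 to 5 with a library left out. For genotype by tissue, the 2 called higher became 0 in limma-voom, 1 with at least 10 counts and 1 with the block (1 to 4 with a library left out), and the 4 called lower became 7, 0, 1 and 0 in DESeq2, limma-voom, the count filter and the block (1 to 9).

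Directions that turned had no call. With each library left out, the log2 values of the genes concerned ranged in BM from -0.119 to 1.11 (Tlr3), -0.122 to 1.51 (Tlr4) and -0.58 to 4.58 (Tlr7), between tissues from -4.41 to 1.27 (Tlr4) and -1.17 to 0.528 (Tlr12), and for genotype by tissue from -1.30 to 1.46 (Tlr3) and -2.36 to 0.801 (Tlr11). In the other settings, Tlr7 in BM (-0.01) was at 2.02 in limma-voom, 0.0956 on VST values, 2.22 with the block and 0.896 with the congenic score, and Tlr4 in BM at -0.0980 without replicate 1 of both genotypes, a setting chosen, like the sum of Tlr1 and Tlr6, after seeing the data. Between tissues, Tlr4 was at 0.0448 on VST values, 0.0013 with RLE scaling and 0.977 with no genotype covariate, and Tlr12 at 0.203 with no genotype covariate and 0.526 in DNGR-1 KO libraries alone. For genotype by tissue, Tlr11 was at 0.205 on VST values and 0.838 with the block. With Tlr1 and Tlr6 summed, the same number of members was called. Over all genes, calls were 4 in BM (0 to 15 over the settings) and 2631 between tissues (4329 in DESeq2, 1246 with the block).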

Other observations

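Cd180, a relative of TLR4 that lacks a TIR domain, shared with Tlr4 and Tlr6 a high WT spleen value. It was at 18.1, 18.0 and 26.5 CPM in WT BM, 18.0, 37.3 and 34.7 CPM in DNGR-1 KO BM, 83.8 CPM in WT spleen, and 14.7 and 20.1 CPM in DNGR-1 KO spleen. Ticam2, the adaptor that links TLR4 to TICAM1, was also highest in WT spleen, with 39.0 to 83.3 CPM in BM, 172 CPM in WT spleen, and 48.3 and 50.8 CPM in DNGR-1 KO spleen. Traf6, the ubiquitin ligase downstream of MYD88, resembled Tlr12, with 16.8 to 39.5 CPM in BM, 1.37 CPM in WT spleen, and 26.9 and 66.3 CPM in DNGR-1 KO spleen. All of these comparisons share the 1 WT spleen library.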
